A study of Mus musculus with 8 samples.

Results

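Epithelial cells hold together through junctions that are built in layers, and the 9 genes described here encode parts of each layer: the cadherins *Cdh1* (E-cadherin) and *Cdh3* (P-cadherin), the adhesion molecule *Epcam*, the claudins *Cldn4*, *Cldn6* and *Cldn7*, occludin (*Ocln*), the scaffold ZO-1 (*Tjp1*) and the junctional adhesion molecule JAM-A (*F11r*). They were chosen by name as a family, and all 9 were found among the 21950 genes of the count table. Bulk RNA-seq libraries were made from d6PGCLCs (4 pools) and from E12.5 PGCs (4 pools), with an independent experiment behind each pool, and the comparison asks how far cells made in culture match germ cells of the embryo. d6PGCLCs are primordial germ cell-like cells that were differentiated from a single mouse iPSC line carrying Blimp1-Venus and Stella-ECFP reporters (BVSC). They passed through epiblast-like cells, were induced with BMP4, SCF, LIF and EGF, were kept later in a medium without BMP4 and, at day 8 of culture, were sorted, by a protocol that selects cells positive for both reporters or for both SSEA1 and integrin β3, without a statement of which pair served these pools. E12.5 PGCs were sorted on SSEA1 and integrin β3 from the female gonads of C57BL/6J embryos. The paper likens d6PGCLCs to migrating PGCs, an earlier stage than E12.5. Line, culture, stage and reporter, and possibly the sort, thus differ together with the group. Their parts in a difference between the groups cannot be told apart.

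Cadherins bind the same molecule on a neighbouring cell and are tied to actin through catenins, which makes adherens junctions. Claudins form the strands of tight junctions and set which ions pass between cells, occludin and JAM-A lie in the same contacts, and ZO-1 holds them to the cytoskeleton from inside. EpCAM is an adhesion molecule of epithelia that binds claudin-7. Germ cells of the mouse embryo are not an epithelium, but E-cadherin and EpCAM are known surface proteins of PGCs, and pluripotent cells express both.

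d6PGCLCs carried more claudin RNA than E12.5 PGCs, moderately more P-cadherin and JAM-A RNA, slightly more EpCAM RNA, and less ZO-1 RNA. *Cldn4* showed by far the widest difference of the 9 genes (17.6-fold), followed by *Cldn7* (4.55-fold), while the difference in *Cdh1* (1.22-fold) did not pass the test and *Ocln* was barely detected in either. By edgeR's quasi-likelihood test over all genes (Benjamini-Hochberg adjusted p of at most 0.05), 6 of the 9 genes were higher in d6PGCLCs, 1 was lower and 2 did not pass. Of all 21950 genes, 16.1% were called higher and 15.4% lower. Among the 11487 genes with a mean of at least 1 CPM (counts scaled to 1e+06 per library with TMM), a level that 8 of the 9 genes reached, the shares were 28.1% and 25.6%. *Cldn4* and *Cldn7* also passed the study's fold threshold (a log2 fold change of 2 or more in either direction), as 6.62% of all genes did. The values of the groups did not overlap for 7 of the 9 genes, 6 higher and 1 lower, as for 15.4% (higher) and 14.8% (lower) of all genes. The median log2 fold change was 0.65 over the 9 genes and -0.03 over all genes.

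The libraries held between 7991437 and 12024841 counted reads, so that the detection limit used here, 3 counts in a library, stood for 0.249 to 0.383 CPM. This limit covers counting error only. 2 of the E12.5 PGC libraries stood apart. Replicate 2 had *Hspa1a*, a heat shock gene, at 144 CPM, where the 3 libraries beside it in that group reached 20.3 CPM at most and 4.42 CPM at least, while every d6PGCLC library was between 0.305 and 0.747 CPM, so that this RNA also differed between the groups. Its part in the results was not tested. Replicate 4 had 97 counts on 5 Y-linked genes, where the other 7 libraries had 0. Germ cell markers were present in both groups, among them *Pou5f1* in CPM at 1632 ± 157 for d6PGCLCs and 980 ± 107 for E12.5 PGCs (± SD over 4 libraries, as throughout), and *Ddx4*, a marker of later germ cells, at 35.5 ± 6.60 and 760 ± 92.2 CPM. Of 10 such markers, 5 were higher and 3 lower in d6PGCLCs, beside 28.1% and 25.6% of genes with a mean of at least 1 CPM. *Dazl* was lower as *Ddx4* was, at 37.7 ± 23.2 and 1262 ± 241 CPM in d6PGCLCs and E12.5 PGCs. In such bulk libraries, fewer cells of one kind and less RNA per cell cannot be told apart.

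Sequences at the start sites are shown for the 3 claudins, which rose most, and for *Tjp1*, the gene that fell. They come from RefSeq (GRCm38.p6), which gave windows of 300 bases (250 before to 50 after a start) for 7 of the 9 genes, 9 windows in all. *Cdh1* and *Cdh3* had no window. The first 280 bases are printed, so that they end 30 bases after the start, each 5′ to 3′ on the strand of the gene. Capitals mark matches, on either strand, to the E-box pair (CAGGTG or its reverse complement CACCTG), the site that Snail and Zeb repressors are known to bind, and to the GC box (GGGCGG or CCGCCC).
Cldn4: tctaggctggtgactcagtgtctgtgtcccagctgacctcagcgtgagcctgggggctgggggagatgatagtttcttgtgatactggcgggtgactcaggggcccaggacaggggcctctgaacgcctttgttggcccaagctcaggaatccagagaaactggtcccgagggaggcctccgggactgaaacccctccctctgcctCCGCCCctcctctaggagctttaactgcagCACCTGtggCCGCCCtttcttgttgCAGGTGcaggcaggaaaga
Cldn6: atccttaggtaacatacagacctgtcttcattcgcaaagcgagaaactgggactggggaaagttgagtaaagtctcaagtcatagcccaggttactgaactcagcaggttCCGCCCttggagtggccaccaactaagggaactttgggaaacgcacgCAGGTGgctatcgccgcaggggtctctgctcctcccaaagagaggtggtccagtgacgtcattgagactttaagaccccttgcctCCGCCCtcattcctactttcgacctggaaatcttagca
Cldn7: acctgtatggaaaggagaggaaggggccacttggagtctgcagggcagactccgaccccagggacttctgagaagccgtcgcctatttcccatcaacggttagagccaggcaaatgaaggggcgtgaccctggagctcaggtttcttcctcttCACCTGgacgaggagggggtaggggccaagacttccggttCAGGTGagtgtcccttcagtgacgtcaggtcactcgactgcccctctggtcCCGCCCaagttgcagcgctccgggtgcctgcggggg
Tjp1: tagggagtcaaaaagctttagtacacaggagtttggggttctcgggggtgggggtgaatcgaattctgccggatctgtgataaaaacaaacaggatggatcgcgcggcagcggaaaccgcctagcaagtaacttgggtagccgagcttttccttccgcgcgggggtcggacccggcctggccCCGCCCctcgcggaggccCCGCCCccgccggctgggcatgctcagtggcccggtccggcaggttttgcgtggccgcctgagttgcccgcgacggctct
These lie at chr5:134946905-134947184 (minus strand), chr17:23679115-23679394 (plus strand), chr11:69965171-69965450 (plus strand) and chr7:65371215-65371494 (minus strand). The *Tjp1*, *Cldn6* and *Cldn7* starts lie inside the annotated genes, that of *Cldn6* close to the annotated start. *Cldn4* had E-boxes beginning at -14 and 12 around its start, counted from 1 at the first transcribed base, and GC boxes at -44 and -5. *Cldn6* had E-boxes at -93 and, beyond the printed bases, at 41, and GC boxes at -140 and -8. In *Cldn7* the E-boxes began at -97 and -57. The *Cldn7* window at the annotated start of the gene, at chr11:69964529-69964808, held none of these letters. *Tjp1* had 2 GC boxes and no E-box in its window. By gene, 6 of 7 had an E-box and 7 of 7 a GC box in a window. Of the 9 windows, 7 held an E-box and 8 a GC box, with the *Ocln* windows overlapping and sharing an E-box, and none held TATAAA or its reverse complement. Over all 32851 windows of this length the shares were 20.2% for the E-box, 35.7% for the GC box and 13.6% for TATAAA. GC content was 52% to 68% in the 9 windows, beside a median of 52.7% over all windows. Its part in these shares was not tested. The E-box and the GC box share no letters in these windows. Such matches are a description of letters and not of binding.

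Of the cadherins, *Cdh3* rose and *Cdh1* did not pass the test. *Cdh3* (Entrez 12560, chromosome 8, 106510852 to 106556911 in GRCm38) encodes P-cadherin. In d6PGCLC replicates 1 to 4 it stood at 394, 412, 391 and 397 CPM, and in E12.5 PGC replicates 1 to 4 at 217, 211, 209 and 226 CPM. The groups were far apart, and the spread within each was the smallest of the 9 genes, with a coefficient of variation of 2.33% in d6PGCLCs and 3.49% in E12.5 PGCs. On the log2 scale this was a rise of 0.88 ± 0.08 (± standard error of the fit, edgeR adjusted p = 1.62e-08), and between 0.86 and 0.91 when any single library was omitted.

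*Cdh1* (Entrez 12550, chromosome 8, 106603350 to 106670247) encodes E-cadherin, the main cadherin of epithelia. Its d6PGCLC libraries stood at 225, 266, 329 and 337 CPM and its E12.5 PGC libraries at 255.3, 200.4, 249.1 and 243.3 CPM. Replicate 1 of the d6PGCLCs lay among the E12.5 PGC libraries, and the other 3 lay above all of them. The fitted log2 difference was 0.29 ± 0.12 (± standard error, edgeR adjusted p = 0.065). It passed in some other fits, among them one without d6PGCLC replicate 1 (0.39, edgeR adjusted p = 0.00184) and one with an offset for exonic length (0.29). Omitting E12.5 PGC replicate 2, in which *Cdh1* was lowest of that group, gave 0.22 (edgeR adjusted p = 0.202). E-cadherin RNA was abundant in both groups.

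The cadherin genes are neighbours. The end of *Cdh3* and the start of *Cdh1* are 46438 bases apart in the RefSeq annotation, with 3 genes between them and no protein-coding one. Their shares of the cadherin RNA differed between the groups. Per length (RPKM, CPM divided by the exonic length in kilobases), the classical cadherins summed to 147 ± 11.6 in d6PGCLCs and 98.5 ± 5.62 in E12.5 PGCs. *Cdh3* made up 58.2% ± 4.98 of this sum in d6PGCLCs and 46.9% ± 2.43 in E12.5 PGCs, and *Cdh1* 38.6% ± 4.26 and 47.5% ± 2.55. The lowest *Cdh3* share of a d6PGCLC library, 53.5%, was above the highest of an E12.5 PGC library, 49.99%. No other classical cadherin exceeded 3.49% of the sum in any library.

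*Epcam* (Entrez 17075, chromosome 17, 87635979 to 87651127) rose slightly. Its d6PGCLC libraries stood at 311, 385, 289.6 and 308 CPM and its E12.5 PGC libraries at 246, 254, 243 and 265 CPM. The groups did not overlap, but replicate 2 of the d6PGCLCs was well above the other 3. This gave a log2 difference of 0.36 ± 0.09 (± standard error, edgeR adjusted p = 0.00456). Omitting d6PGCLC replicate 2 left 0.26, still past the threshold (edgeR adjusted p = 0.0234).

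All 3 claudins of the set rose, by different amounts. *Cldn4* (Entrez 12740, chromosome 5, 134945123 to 134946934), a claudin of tight epithelia, stood at 44.4, 66.1, 50.6 and 40.5 CPM in d6PGCLCs and at 2.62, 4.00, 1.94 and 2.89 CPM in E12.5 PGCs. In E12.5 PGCs this was 21, 38, 21 and 32 counts, well above the limit of detection in each library, and the lowest d6PGCLC library was still over 10 times the highest E12.5 PGC library. In the fit *Cldn4* rose by 4.14 ± 0.21 in log2 (± standard error, edgeR adjusted p = 2.74e-12). The rise was 4.35 without E12.5 PGC replicate 2, the highest of that group, and 3.98 at the least when any library was left out.

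*Cldn7* (Entrez 53624, chromosome 11, 69964779 to 69967886), the claudin that binds EpCAM, was the most abundant of them. Its d6PGCLC libraries stood at 120.5, 116, 100.3 and 87.9 CPM, and its E12.5 PGC libraries at 21.1, 27.99, 21.8 and 22.5 CPM. The groups were clear of each other, with replicate 2 again highest among the E12.5 PGCs. Fitted in log2, the rise was 2.19 ± 0.12 (± standard error, edgeR adjusted p = 2.18e-11), and 2.29 without that library.

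*Cldn6* (Entrez 54419, chromosome 17, 23679348 to 23682446) is a claudin of embryonic epithelia and pluripotent cells. It stood at 40.6, 44.6, 30.04 and 27.9 CPM in d6PGCLCs and at 14.8, 13.6, 12.3 and 11.7 CPM in E12.5 PGCs. The d6PGCLC libraries formed a higher pair, replicates 1 and 2, and a lower pair, both above every E12.5 PGC library. The rise in log2 was 1.45 ± 0.16 (± standard error, edgeR adjusted p = 4.11e-07).

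**Figure D1:**
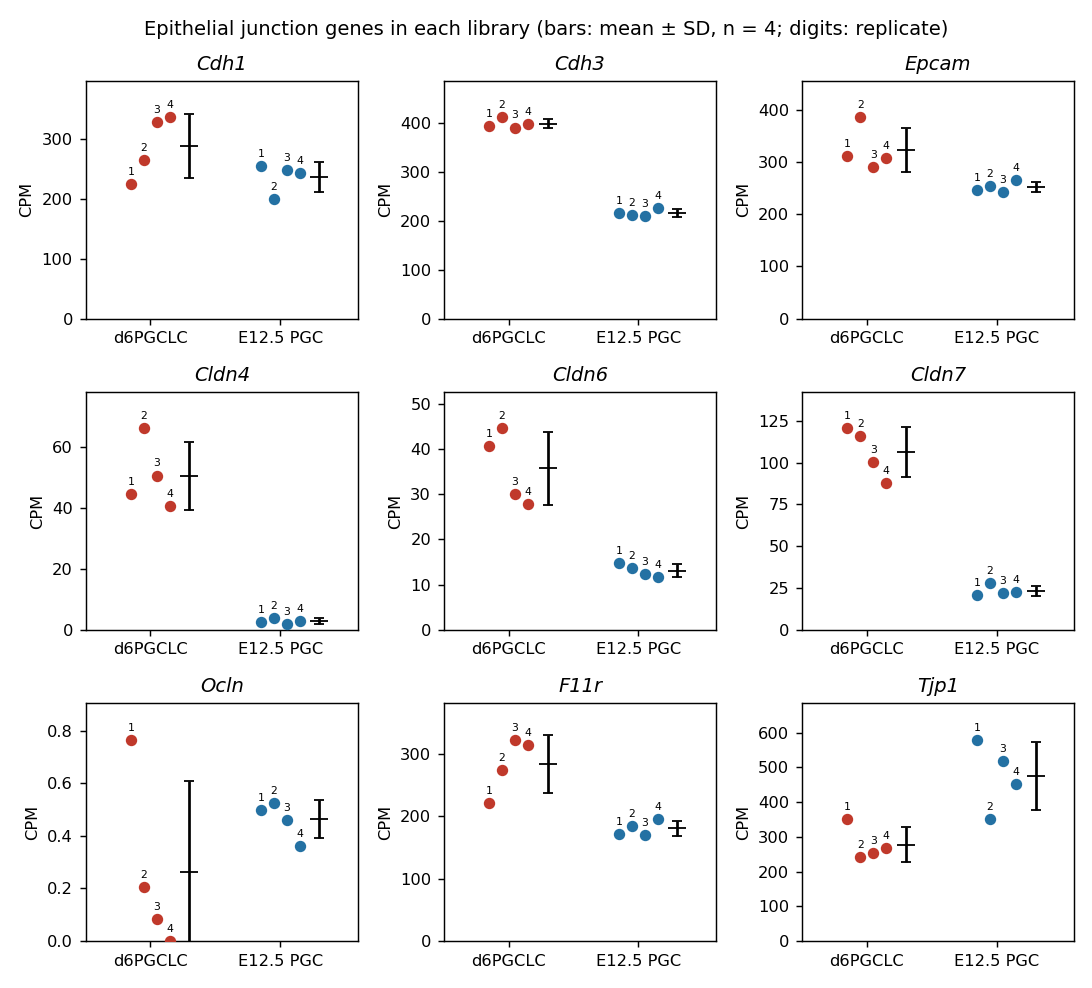
CPM (linear axis from 0, a separate scale for each gene) of the 9 epithelial junction genes in 4 d6PGCLC (red) and 4 E12.5 PGC (blue) libraries, with replicate numbers beside the points and mean ± SD as black bars. The points of *Cldn4*, *Cldn7*, *Cldn6*, *Cdh3*, *Epcam* and *F11r* lie higher in d6PGCLCs without overlap, those of *Tjp1* lie lower, with d6PGCLC replicate 1 almost level with E12.5 PGC replicate 2, and those of *Cdh1* and *Ocln* overlap.

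Occludin was the only one of the 9 genes with a mean below 1 CPM. *Ocln* (Entrez 18260, chromosome 13, 100496504 to 100552718) had 6, 2, 1 and 0 counts in the d6PGCLC libraries and 4, 5, 5 and 4 counts in the E12.5 PGC libraries, 9 and 18 counts in all. These counts are close to the limit of detection, the groups overlapped, and edgeR's adjusted p was 0.474. A difference in *Ocln* was not detectable at this depth. The exonic length given with the counts was 2630 bases for this gene, shorter than its longest GENCODE transcript (4052 bases). Reads on other exons may thus be missing from these counts.

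*F11r* (Entrez 16456, chromosome 1, 171437561 to 171464593) encodes JAM-A, which helps to place tight junctions. It rose from 172, 184, 170.4 and 196 CPM in E12.5 PGCs to 221, 275, 323 and 315 CPM in d6PGCLCs. The groups did not overlap, and replicate 1 was lowest among the d6PGCLCs, as it was for *Cdh1*. *F11r* thus rose by 0.65 ± 0.11 in log2 (± standard error, edgeR adjusted p = 4.77e-05).

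*Tjp1* (Entrez 21872, chromosome 7, 65296165 to 65527850), the ZO-1 scaffold, was the only one of the 9 genes to fall. Its d6PGCLC libraries stood at 350.1, 241, 253 and 267 CPM and its E12.5 PGC libraries at 580.3, 350.4, 518 and 453 CPM. The groups met almost without a gap, at d6PGCLC replicate 1 and E12.5 PGC replicate 2, and the remaining libraries were well apart. In log2 the change was -0.78 ± 0.13 (± standard error, edgeR adjusted p = 6.66e-05). Leaving out each library in turn gave -0.91 (without d6PGCLC replicate 1) to -0.67 (without E12.5 PGC replicate 1), with the call kept each time.

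**Figure D2:**
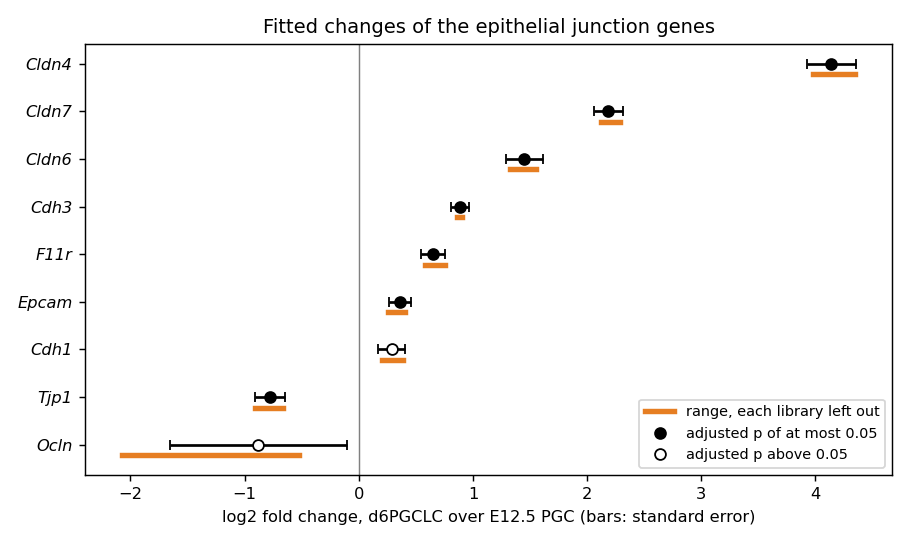
Fitted log2 fold change (d6PGCLC over E12.5 PGC) of each of the 9 genes with its standard error (black) and the range over the 8 fits that each leave out 1 library (orange), with filled points for an adjusted p of at most 0.05. *Cldn4* stands at 4.14 and *Tjp1* at -0.78, and the wide range of *Ocln*, from -2.07 to -0.52, comes with its 27 counts over all 8 libraries.

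Within the d6PGCLCs the genes did not follow a common order of libraries. Replicate 1 was the lowest of 4 for *Cdh1* and *F11r* and the highest for *Cldn7* and *Tjp1*. Replicate 2 was the highest for *Cdh3*, *Epcam*, *Cldn4* and *Cldn6*. In E12.5 PGCs, replicate 2, the library with high heat shock RNA, was the highest for *Cldn4* and *Cldn7* and the lowest for *Cdh1* and *Tjp1*. The part of this library's state in these values was not tested, and the 7 genes called kept their call and direction without it. The same held without E12.5 PGC replicate 4.

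Comparing genes by level needs a value per length. In d6PGCLCs the order in mean RPKM was *Epcam* (131), *F11r* (98.3), *Cdh3* (85.2), *Cldn7* (72.2), *Cdh1* (57.2), *Tjp1* (35.5), *Cldn4* (27.2), *Cldn6* (22.001) and *Ocln* (0.10). Of neighbours in this order, *Epcam* and *F11r*, *Cdh3* and *Cldn7*, and *Cldn6* and *Ocln* had separate ranges over 4 libraries, and the others overlapped. In E12.5 PGCs the order was *Epcam* (102.4), *F11r* (62.7), *Tjp1* (60.7), *Cdh1* (46.9), *Cdh3* (46.2), *Cldn7* (15.9), *Cldn6* (8.06), *Cldn4* (1.55) and *Ocln* (0.18). Here *F11r* and *Tjp1*, *Tjp1* and *Cdh1*, and *Cdh1* and *Cdh3* overlapped. By mean, *Epcam* and *F11r* led in both groups, whereas *Tjp1* was above both cadherins in E12.5 PGCs and below both in d6PGCLCs. Single libraries differed from this order. In E12.5 PGC replicate 2, *Tjp1* (44.75) was just below *Cdh3* (45.16), and in d6PGCLC replicate 1 *Tjp1* (44.71) was just above *Cdh1* (44.51). Summed over the 9 genes, RPKM was 529 ± 25.2 in d6PGCLCs and 345 ± 13.4 in E12.5 PGCs. The exonic lengths of the table equal no GENCODE M21 transcript for any of the 9 genes, and for 8 of them they exceed the longest, so that orders between genes of close level are uncertain.

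**Figure D3:**
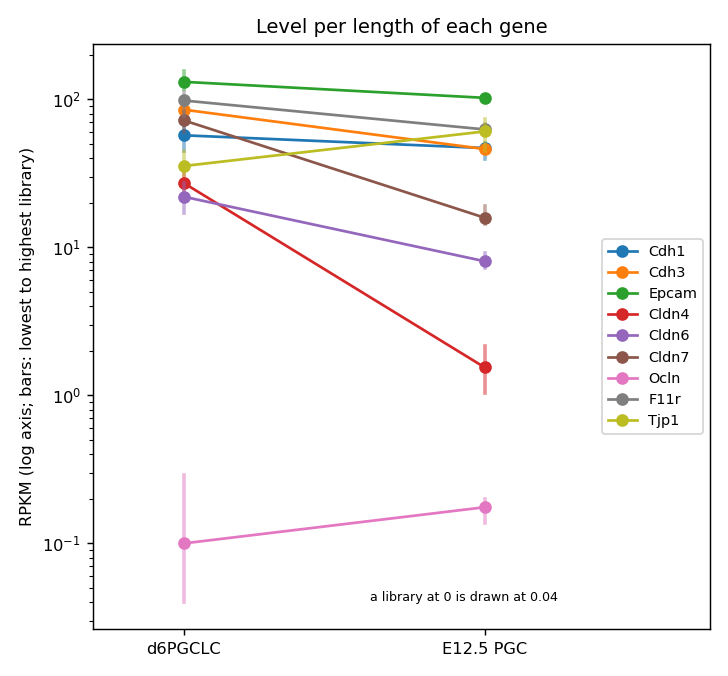
Mean RPKM (log axis) of each of the 9 genes in d6PGCLCs and E12.5 PGCs, joined by a line, with bars from the lowest to the highest of 4 libraries. *Epcam* leads on both sides, the *Tjp1* line rises towards E12.5 PGCs, *Cldn4* falls from 27.2 to 1.55, and *Ocln* lies under 0.3 in every library.

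The claudins were counted as a family as well. Over the claudins of the table (21), RPKM summed to 164 ± 17.4 in d6PGCLCs and 48.5 ± 6.99 in E12.5 PGCs, and the highest E12.5 PGC library, replicate 2, reached 58.9 against 141 in the lowest d6PGCLC library. *Cldn7* held the largest share in both, 43.98% ± 2.64 in d6PGCLCs and 32.7% ± 0.918 in E12.5 PGCs. *Cldn4* held 16.5% ± 2.37 in d6PGCLCs and 3.16% ± 0.624 in E12.5 PGCs. *Cldn6* held 13.3% ± 1.76 and 16.8% ± 2.77, ranges that overlapped. In E12.5 PGCs *Cldn12* stood near *Cldn6* with overlapping ranges, with 18.5% ± 2.39 against 6.16% ± 0.542 in d6PGCLCs. Its own level barely moved, with 39.7 ± 3.39 CPM for d6PGCLCs and 35.1 ± 1.11 CPM for E12.5 PGCs (edgeR adjusted p = 0.30).

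**Figure D4:**
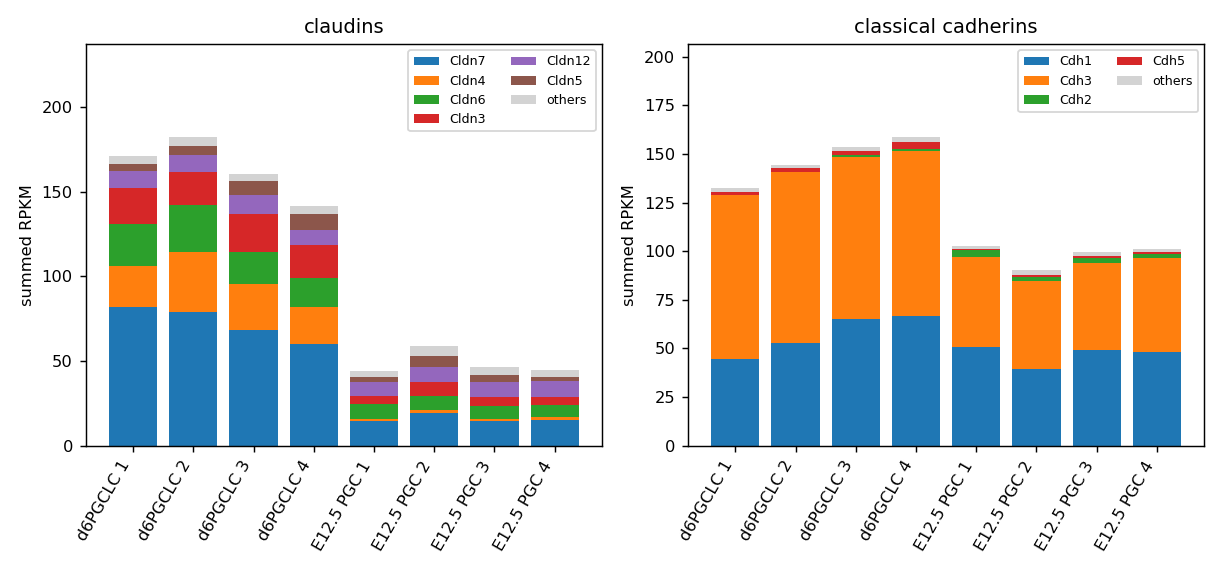
Summed RPKM of the claudins (left) and of the classical cadherins (right) in each of 8 libraries, stacked by gene, with the remaining genes of each family in grey. The claudin sum lies between 141 and 182 in d6PGCLCs and between 44.0 and 58.9 in E12.5 PGCs, with *Cldn7* at the base of each bar, and the cadherin bars consist almost wholly of *Cdh1* and *Cdh3*.

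The remaining genes of the junctions were read from lists, given as counts and medians in the same fit over all genes. Beside these stand the shares of all genes, 16.1% higher and 15.4% lower, and those of genes with a mean of at least 1 CPM, 28.1% and 25.6%. The latter are nearer for the adherens junction, polarity and other tight junction lists, in which at most 1 gene was below that mean. No list was tested against them. Of 18 other claudins in the table, 2 were higher, 1 was lower and 15 were not called, and 14 had a mean below 1 CPM. Their median log2 fold change was 0 over all 18, and 0.73 over the 4 with a mean of at least 1 CPM. *Cldn3*, which lies 39279 bases from *Cldn4* on chromosome 5 with no annotated gene between them, rose from 7.39 ± 2.08 to 27.1 ± 2.20 CPM (log2 fold change 1.87, adjusted p = 3.45e-08). *Cldn9* starts 137 bases beyond the end of *Cldn6*. In CPM it stood at 1.21 ± 0.291 and 0.646 ± 0.311 in d6PGCLCs and E12.5 PGCs (adjusted p = 0.157). *Cldn5*, the claudin of endothelium, had a log2 fold change of 0.85 (adjusted p = 0.0296), but its groups overlapped and the call was lost without any 1 of 5 libraries (adjusted p from 0.0614 to 0.126 without d6PGCLC replicate 3 or 4 or E12.5 PGC replicate 1, 3 or 4). The gene called lower, *Cldn34c1*, had at most 3 counts in any d6PGCLC library and at most 16 in any E12.5 PGC library.

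The table held 16 classical cadherins. With *Cdh1* and *Cdh3* included, 3 of them were higher, 2 lower and 11 not called, with 10 below a mean of 1 CPM. *Cdh2*, the N-cadherin of neural and mesenchymal cells, fell from 13.5 ± 3.98 to 2.60 ± 1.43 CPM (log2 fold change -2.36, adjusted p = 2.11e-06). *Cdh20* fell too (adjusted p = 6.12e-06), from 2.94 ± 0.872 CPM to a level of at most 4 counts in any d6PGCLC library. *Cdh5*, the VE-cadherin of endothelium, rose from 4.18 ± 1.16 to 10.97 ± 4.13 CPM (log2 fold change 1.39, adjusted p = 0.000193). *Cdh15* had a log2 fold change of 1.19 (adjusted p = 0.0358), with overlapping groups, and lost its call without any 1 of 5 libraries (adjusted p from 0.0573 to 0.11 without d6PGCLC replicate 3 or 4 or E12.5 PGC replicate 2, 3 or 4). The summed level of 6 endothelial markers, *Cdh5* and *Cldn5* among them, ranged from 34.0 to 51.3 CPM in d6PGCLCs and from 19.1 to 34.2 CPM in E12.5 PGCs. *Flt1*, also of that list, rose (log2 fold change 3.58, adjusted p = 2.98e-06), the receptor *Tek* stood at 16.3 ± 2.14 and 13.97 ± 2.67 CPM in d6PGCLCs and E12.5 PGCs (adjusted p = 0.42), and the receptors *Kdr* and *Tie1* were at most 0.631 CPM in every library. The part of endothelial RNA in these values was not tested.

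The adherens junction list held 16 genes, for catenins, nectins and proteins that bind them. Of these, 9 were higher, 2 lower and 5 not called, beside 28.1% and 25.6% of all genes at this level. The median log2 fold change was 0.35. *Jup* (plakoglobin), which serves both adherens junctions and desmosomes, rose from 3.86 ± 1.05 to 19.8 ± 3.78 CPM (log2 fold change 2.35, adjusted p = 1.16e-08). The actin-binding *Lima1* and the nectins *Nectin2* and *Nectin1* had log2 fold changes of 1.46, 1.41 and 0.75. *Ctnnb1* (β-catenin), the highest of the list in CPM, which is not corrected for length, differed little. It stood at 1239.6 ± 59.9 and 1319 ± 122 CPM in d6PGCLCs and E12.5 PGCs (edgeR adjusted p = 0.542). *Ctnna1* (α-catenin), by contrast, rose by 0.50 and *Ctnnd1* (p120 catenin) by 0.38 on the log2 scale. *Ctnnbip1*, an inhibitor of β-catenin, fell by 0.90. *Ctnna2*, the neural α-catenin, had a log2 fold change of -1.28 (adjusted p = 0.0268), a call that was lost without d6PGCLC replicate 1 or 2 or E12.5 PGC replicate 3 (adjusted p up to 0.111).

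Tight junction proteins outside the claudin family had 7 of 19 higher, 4 lower and 8 not called and a median of 0.10. *Lsr* (angulin-1), which marks contacts of 3 cells, rose from 9.86 ± 1.66 to 72.2 ± 8.998 CPM (log2 fold change 2.88, adjusted p = 2.83e-12), and *Marveld3*, a relative of occludin, and *Ildr1* (angulin-2) had log2 fold changes of 2.30 and 2.28. *Marveld2* (tricellulin), another relative of occludin, was at 6.24 ± 2.48 and 6.11 ± 0.672 CPM (adjusted p = 1.00). Scaffolds went both ways. The PDZ scaffold *Mpdz* (MUPP1) fell from 94.7 ± 21.0 to 15.4 ± 2.12 CPM (log2 fold change -2.62, adjusted p = 2.36e-11), and *Cgnl1* (paracingulin) and *Magi3* fell by 1.29 and 1.14, as *Tjp1* did by 0.78. *Cgn* (cingulin) rose by 0.79. *Ubn1*, which is better known as a nuclear histone chaperone subunit, fell by 0.74.

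Among desmosome genes 6 of 13 were higher, 1 lower and 6 not called (median 0.61), beside 16.1% higher and 15.4% lower of all genes and 28.1% and 25.6% of those with a mean of at least 1 CPM, which 8 of the 13 reached. *Pkp3*, *Ppl*, *Dsc2* and *Dsg2*, encoding plakophilin-3, periplakin, desmocollin-2 and desmoglein-2, had log2 fold changes of 2.39, 1.88, 1.40 and 1.20. Against these, *Dsp* (desmoplakin), the highest of the list in CPM, which is not corrected for length, fell from 425 ± 59.1 to 301 ± 32.6 CPM (log2 fold change -0.50, edgeR adjusted p = 0.000624). Polarity genes showed 3 higher, 3 lower and 8 not called of 14 (median 0.10). *Prkci*, the atypical protein kinase C of the Par complex, rose from 166 ± 14.7 to 491 ± 21.5 CPM (log2 fold change 1.56), *Pard6g* by 2.61 and *Llgl2* by 0.42 on that scale, and *Crb2* and *Pard3* fell by 1.53 and 0.77. *Pard3b* was called lower, with at most 3 counts in any d6PGCLC library and 1.70 ± 0.174 CPM in E12.5 PGCs.

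EpCAM is known to be cut by the serine protease matriptase (*St14*), which is held in check by the inhibitors *Spint1* and *Spint2*. Of the 8 genes of this axis and of EpCAM's partners, 5 were higher and 3 had at most 3 counts in every library. None was lower by the quasi-likelihood test or by DESeq2, and *Cd44* was the only one at an unadjusted p under 0.05 and was called by the likelihood ratio test. *St14* rose from 96.9 ± 14.97 to 251 ± 43.9 CPM, *Spint2* from 85.5 ± 7.001 to 215 ± 36.4 CPM and *Spint1* from 1.55 ± 1.07 to 5.45 ± 1.03 CPM (log2 fold changes 1.37, 1.33 and 1.87, adjusted p of at most 0.000393). *Prss8* (prostasin) and the tetraspanin *Cd9* had log2 fold changes of 2.31 and 1.53. Both *Epcam* and its protease and inhibitors were thus higher in d6PGCLCs, *Epcam* by the least.

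The transcription factors that act on junction genes were counted last. Of 12 regulators of epithelial genes, 5 were higher, 1 lower and 6 not called, with a median log2 fold change of 0.16. Beside these stand 28.1% higher and 25.6% lower of genes with a mean of at least 1 CPM, a level that 10 of the 12 reached. *Ovol1*, *Grhl3*, *Klf5* and *Elf3* rose (log2 fold changes 2.37, 1.33, 1.15 and 1.13). *Tfap2c*, which is also among the germ cell markers, rose by 0.65. *Ovol2* fell from 7.38 ± 1.35 to 1.13 ± 0.269 CPM (log2 fold change -2.71, adjusted p = 7.40e-08). *Grhl2* and the splicing regulator *Esrp1* were not called, the former with 5.29 ± 1.04 and 4.90 ± 2.04 CPM and the latter with 375 ± 23.8 and 326 ± 17.2 CPM in d6PGCLCs and E12.5 PGCs (edgeR adjusted p = 0.985 and 0.0755). Of 7 repressors of *Cdh1* and mesenchymal factors, 3 were lower and none was higher by that test. *Tcf3* was higher at an unadjusted p under 0.05 and was called by DESeq2. Of all genes, 15.4% were lower and 16.1% higher. The list median was -0.21, and 3 of the 7 had a mean below 1 CPM. With either low-count filter 1 gene of the list was lower, and against a minimum absolute log2 fold change of 1 (glmTreat) 0 were. *Snai2* stood at 0.612 ± 0.234 and 1.78 ± 0.54 CPM in d6PGCLCs and E12.5 PGCs (log2 fold change -1.47, adjusted p = 0.00846), *Snai1* at 0.268 ± 0.161 and 1.48 ± 1.13 CPM (adjusted p = 0.00327), with its highest value, 3.16 CPM, in E12.5 PGC replicate 2, and *Twist1* at no more than 9 counts in any library, with a call (adjusted p = 0.0229) that was lost without any 1 of 5 libraries (adjusted p from 0.0526 to 0.0724 without d6PGCLC replicate 1, 3 or 4 or E12.5 PGC replicate 2 or 3). *Snai1*, *Snai2* and *Twist1* were thus low in both groups, whereas *Tcf3*, a factor with many other roles, stood at 670.1 ± 30.2 and 598 ± 8.35 CPM in d6PGCLCs and E12.5 PGCs. *Zeb1* and *Zeb2* were not analysed here.

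**Figure D5:**
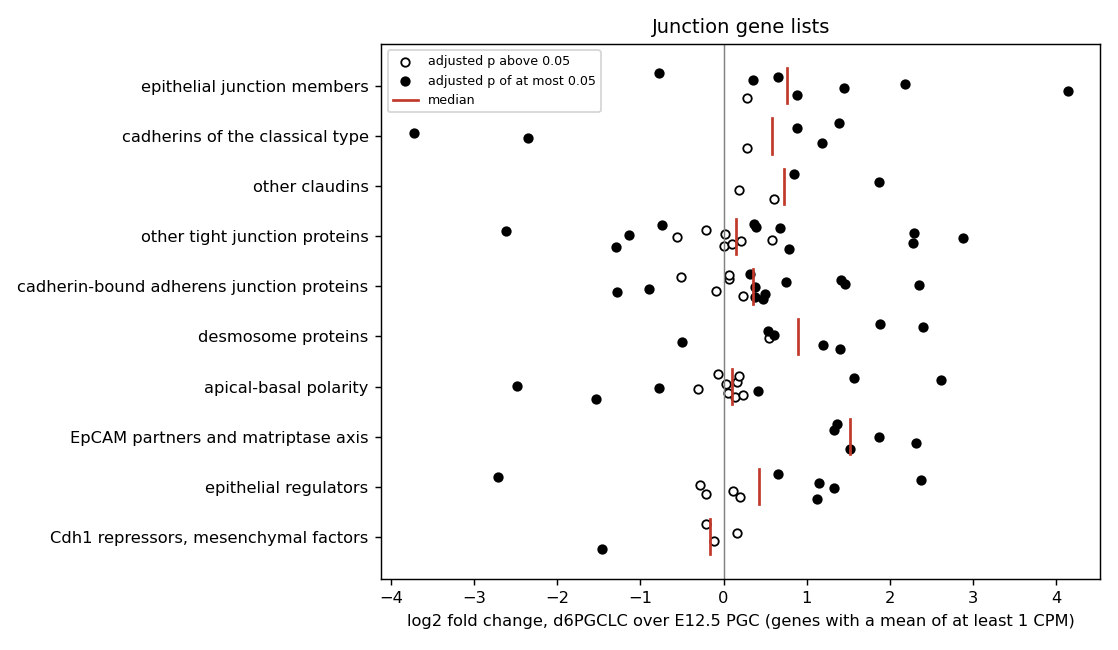
Log2 fold change (d6PGCLC over E12.5 PGC) of the genes with a mean of at least 1 CPM in each junction list, 1 point per gene, filled where the adjusted p was at most 0.05, with the list median as a red line. The medians lie at 0.77 for the 9 epithelial junction genes (8 drawn), 0.73 for other claudins and 0.16 for other tight junction proteins, beside 0.01 for all genes at this level.

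Markers of other epithelia and of gonadal somatic cells were read beside these results. The summed level of 7 gonadal somatic markers was 0.498 to 1.021 CPM in d6PGCLCs and 1.90 to 4.74 CPM in E12.5 PGCs, with 3 of 7 lower in d6PGCLCs, beside 15.4% of all genes, and *Wt1* and *Gata4* at no more than 1.68 CPM in any library. That of 6 markers of coelomic and mesonephric epithelium was 0.581 to 1.83 CPM and 3.96 to 7.37 CPM. *Pax8* held most of it in E12.5 PGCs and was lower in d6PGCLCs (log2 fold change -3.27, adjusted p = 3.89e-07), as was *Emx2* (adjusted p = 0.00346, 0 counts in every d6PGCLC library and at most 6 in an E12.5 PGC library). The epithelial keratin *Krt19* went the other way (adjusted p = 0.0288), with at most 10 counts in a d6PGCLC library and 3 in an E12.5 PGC library, a call that was lost without any 1 of 5 libraries (adjusted p from 0.0655 to 0.118 without d6PGCLC replicate 2 or 4 or E12.5 PGC replicate 1, 3 or 4). The part of such cells in the values of the junction genes was not tested. The 4 blood markers of the table summed to at most 1.16 CPM in any library. For 5 markers of primed epiblast, the stage that precedes PGCLCs in culture, the sums overlapped, with 20.7 to 35.4 CPM in d6PGCLCs and 23.3 to 28.9 CPM in E12.5 PGCs, but 3 of the genes were lower in d6PGCLCs and 1 was higher, with a list median of -1.48. All 5 had a mean of at least 1 CPM, where 25.6% of genes were lower and 28.1% higher. *Sall2* was lower (log2 fold change -2.53, adjusted p = 2.85e-06), and *Dnmt3b*, which held most of the sum in d6PGCLCs, was higher (0.94, adjusted p = 0.000879).

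Of 9289 genes with a mean of at least 5 CPM, those whose log2(CPM + 0.1) followed 3 of the junction genes most closely over the 8 libraries were named by Pearson's r, as a description in which the difference between the groups enters. For *Cdh1* these were *Papolg* (0.96), *Map3k7* (0.96) and *Cep128* (0.95), for *Epcam* *Lgals9* (0.99), *Ywhaq* (0.98) and *Lap3* (0.98), and for *Cldn6* *Pacc1* (0.99), *Idh2* (0.99) and *Pld3* (0.99). None of these is a junction gene of the lists above.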

How the data were processed

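Poly(A) RNA of 30000 to 340000 cells per pool was sequenced as stranded single-end libraries. The authors aligned the reads with STAR to GRCm38 (mm10) with ERCC sequences added and used QuasR to count uniquely mapped reads on the exons of an isoform drawn at random per gene. The deposited values are raw counts per Entrez identifier with a width column, which was used here as the exonic length. Its values equal no GENCODE M21 transcript for any of the 9 genes and exceed the longest for 8. Whether they are lengths of the drawn isoforms is thus not known. Whether counting used strand is not given in the sources used here. Reads shared by near-identical genes were not counted.

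Identifiers were matched to RefSeq (GRCm38.p6), with a symbol for 21907 of 21950. Counts of all genes, without a filter, were normalized with TMM and tested with edgeR 4.0.16 in R 4.3.3 (glmQLFit and glmQLFTest, prior count 0.125, cell type as the only term), with Benjamini-Hochberg adjustment. Adjusted p-values in the report are from this test. CPM used TMM-scaled library sizes and RPKM the exonic length of the table. Genes named besides the 9 are, per list, up to 4 in each direction with the largest absolute log2 fold change among those called with a mean of at least 1 CPM, cell type markers, and the 3 genes most alike to *Cdh1*, *Epcam* and *Cldn6*. *Spint2*, *Ctnnb1*, *Ctnna1*, *Ctnnd1*, *Marveld2*, *Cldn9*, *Cldn12*, *Cldn34c1*, *Grhl2*, *Esrp1*, *Snai1*, *Twist1*, *Tcf3* and *Cd44* were added after their values were seen. The 9 genes, the lists and the alternatives were chosen with earlier results of these data known. Results were recomputed with DESeq2 1.42.0 and edgeR's likelihood ratio test, with each library omitted, with low-count filters and other normalizations, with replicate number as a block, with a length offset, at a larger prior count (2), and against stricter limits, glmTreat included. The fit was also run on simulated counts, with 50 genes changed at each log2 fold change of -2, -1, 1 and 2. It recovered 50, 47, 48 and 50 of these, in that order. It also called 36 genes that were not changed, so that some calls here may be false. Protein sequences were not used here. Some single-gene results are not reported here.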

Additional observations from a re-analysis of the deposited data

Results flagged for a closer look

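In 100 sets of 4 libraries (50 genes in 2 groups), a library was compared with the other 3 by Dixon's criterion, which chance meets in about 1 of 20 sets. It was met 5 times, as often as the 5 that chance gives, and never for the 9 junction genes. In d6PGCLCs, *Cd9*, a partner of EpCAM, was at 291 CPM in replicate 2 and between 179 and 182 CPM in the other libraries. In E12.5 PGCs, *Cd9* was at 66.9 CPM in replicate 2 and at 73.5 CPM or more in the others. *Nectin1* was at 15.8 CPM in d6PGCLC replicate 1 with a next value of 11.8 CPM, and *Ovol2* at 1.53 CPM in the same library with a next value of 1.018 CPM. *Llgl2* was at 171 CPM in E12.5 PGC replicate 2, above 157 CPM in the nearest library.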

How the results depend on the processing

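The counts of junction genes were 6 higher, 1 lower and 2 past the fold threshold in the main analysis. Against a minimum absolute log2 fold change of 1 (glmTreat), 3 were higher and 0 lower, and 1532 of all genes were called in place of 6919. This follows from the construction of that test, since *Cdh3*, *Epcam*, *F11r* and *Tjp1* changed by less than 1. No alternative reversed a direction, in 178 values of the 9 genes and 820 of 41 named list genes, of which 171 and 784 kept their side of the threshold. *Cdh1* crossed it in 3 fits, without d6PGCLC replicate 1 (0.39), with the length offset (0.29) and with the replicate block (0.28). With each library left out, 6 to 7 genes were higher and 1 was lower, and the other normalizations, filters, tests and the stricter adjusted p gave 6 and 1. Libraries of the same number did not deviate together throughout (r from -0.01 to 0.25 over 11487 genes in 4 pairs), and 5 of 8 libraries matched their own number best. The replicate block gave 7 genes higher and 1 lower, and 7270 calls over all genes. Depth limits *Ocln*. Each group had 4 pools, those of the d6PGCLCs from a single line, and the power to detect a difference as small as that of *Cdh1* was not tested.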
